A study of Arabidopsis thaliana with 12 samples.

Results

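The loci annotated as ncRNA, miRNA and snoRNA in Arabidopsis were described from RNA sequencing of wild-type and gpl-1 seedlings. They were chosen by their annotated biotype alone, as 3 of the 9 biotypes over which the reads had been counted, and no measured value entered the choice. Overlapping intervals on 1 strand were joined, which gave 947 ncRNA, 185 miRNA and 71 snoRNA loci, together 1203 of the 154041 loci of all biotypes. The counts are given as a single sum per biotype and library, so that the level of an individual locus cannot be read, and every level below is that of a whole class.

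The study asked how GPL, a GPS2-like protein, takes part in the response to abscisic acid (ABA), the hormone of drought and seed dormancy. Seedlings of 2 weeks of age were compared in 4 groups of 3 libraries each: wild type (WT, accession Col-0), WT incubated with ABA for 2 h, the gpl-1 mutant, and gpl-1 incubated with ABA for 2 h. The sample records name 8 buds of seedlings for the treatment, whereas the methods name a larger pool of whole seedlings for each sample, and the difference could not be settled. Also, gpl-1 is a single mutant line, and the dose of ABA and the mock solution, if any, are not given in the sources used here. In the gpl-1 files the header of the counts names a different line, so the assignment to gpl-1 rests on the sample records, and counts per biotype hold no value of GPL with which to check it.

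The 3 classes do different work in the cell. A miRNA is cut from the hairpin of a longer transcript and guides an Argonaute protein to complementary mRNAs, and in plants several conserved families control transcription factors of growth and of nutrient and stress responses. A snoRNA of the box C/D type guides the methylation of ribosomal RNA in the nucleolus through short conserved boxes near its ends, and plant snoRNA genes often lie in groups that are transcribed together. The class ncRNA is the remainder: long non-coding and antisense transcripts, and the TAS precursors, from which phased small interfering RNAs are made after a miRNA has cut them.

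Of the 29 mature sequences found in more than 1 locus, the 9 that 3 or more loci share are shown because they say which loci of the miRNA class yield the same product. The sequences are from RefSeq TAIR10.1, whose nuclear chromosomes carry the TAIR10 sequence of the deposited files, and the capitals mark the seed, bases 2 to 8 from the 5′ end.
miR169h to miR169n, 7 loci on chromosomes 1 and 3: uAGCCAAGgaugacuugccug
miR166a to miR166g, 7 loci on chromosomes 2, 3 and 5: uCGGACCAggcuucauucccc
miR156a to miR156f, 6 loci on chromosomes 2, 4 and 5: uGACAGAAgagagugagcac
miR169d to miR169g, 4 loci on chromosomes 1, 3 and 4: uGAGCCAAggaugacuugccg
miR395a, miR395d and miR395e, 3 loci on chromosome 1: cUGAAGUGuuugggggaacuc
miR395b, miR395c and miR395f, 3 loci on chromosome 1: cUGAAGUGuuuggggggacuc
miR160a to miR160c, 3 loci on chromosomes 2, 4 and 5: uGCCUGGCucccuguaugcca
miR157a to miR157c, 3 loci on chromosomes 1 and 3: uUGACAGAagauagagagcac
miR405a, miR405b and miR405d, 3 loci on chromosomes 2, 4 and 5: aUGAGUUGggucuaacccauaacu
The seed of miR169h to miR169n was held by 10 loci in all, that of miR166 by 9 loci, the 2 miR165 loci included, and that of miR156a to miR156f by 9 loci. The 2 groups of miR395 have 1 seed between them, over 6 loci. The seed of miR157a to miR157c is that of miR156 moved by 1 base. miR405, which belongs to none of the conserved families and was named after its sequence had been seen, is the only product of 24 bases shown.

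The TAS loci of the ncRNA class are shown with the site that pairs with the miRNA known to cut each of them, because these sites tie members of the ncRNA class to members of the miRNA class. Here the capitals mark bases that pair with the miRNA by Watson-Crick rules in an alignment with no gap, and the miRNAs come first, with their seeds in capitals. The miR173 and miR828 loci, and the locus known as TAS4, were named after their values had been seen.
miR173-5p, from chr3:8236161-8236182, plus strand: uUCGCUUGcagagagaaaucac
TAS1A site, chr2:11722081-11722102, minus strand: GUGAUUUuUCUCUaCAAGCGAA
TAS1C site, chr2:16537890-16537911, minus strand: GUGAUUUuUCUCUaCAAGCGAA
TAS2 site, chr2:16539991-16540012, minus strand: GUGAUUUuUCUCUcCAAGCGAA
TAS1B site, chr1:18549660-18549681, minus strand: GUGAUUUuUCUCaaCAAGCGAA
miR390a-5p, from chr2:16061971-16061991, plus strand: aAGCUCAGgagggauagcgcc
TAS3b site, chr5:20134458-20134478, plus strand: GaCGCUAUCuuaCCUGAGCUU
TASIR-ARF site, chr5:23394422-23394442, plus strand: GuuuCUAUuCCUCCUGAGCUU
TAS3 site, chr3:5862099-5862119, plus strand: GGuGuUAUCCuauCUGAGCUU
miR828, from chr4:13847020-13847041, plus strand: uCUUGCUUaaaugaguauucca
AT3G25795 (TAS4) site, chr3:9417809-9417830, minus strand: UGGAAUACUCAUUUgAGCAAGA
The sites in TAS1A, TAS1C and TAS2 had 2 unpaired bases against miR173-5p, and that in TAS1B had 3. Of the 946 ncRNA loci that could be searched, these 4 alone held a match to miR173-5p with at most 5 unpaired bases. A match to miR390a-5p within the same limit was found in 3 loci, with 4 unpaired bases in TAS3b and TASIR-ARF and 5 in TAS3, and 1 locus, AT3G25795, matched miR828, with 1 unpaired base. A match describes the sequence and does not show that the site was cut in these seedlings.

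The snoRNA genes of the tightest group of 4, and a pair that lies inside genes for the methyltransferase of the same particles, are shown with the C box (TGATGA) and the D box (CTGA) in capitals. The pair was chosen after its position had been seen.
AT2G43137, chr2:17923081-17923157, plus strand: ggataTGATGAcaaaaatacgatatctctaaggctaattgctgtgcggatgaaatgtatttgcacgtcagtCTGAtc
AT2G43138, chr2:17923238-17923316, plus strand: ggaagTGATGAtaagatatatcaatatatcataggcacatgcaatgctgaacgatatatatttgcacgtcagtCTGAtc
AT2G43139, chr2:17923399-17923477, plus strand: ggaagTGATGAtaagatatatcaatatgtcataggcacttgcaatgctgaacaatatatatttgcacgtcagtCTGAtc
AT2G43141, chr2:17923563-17923637, plus strand: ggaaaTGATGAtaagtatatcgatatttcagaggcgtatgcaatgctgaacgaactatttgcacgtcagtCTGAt
U60.1F, AT5G52471, chr5:21295736-21295809, plus strand: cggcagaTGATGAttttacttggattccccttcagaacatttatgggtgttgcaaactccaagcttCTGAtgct
U60.2F, AT4G25631, chr4:13075563-13075635, plus strand: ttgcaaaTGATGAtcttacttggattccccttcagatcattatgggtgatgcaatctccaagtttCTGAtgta
The 4 members of the group share a run of 20 bases, tatttgcacgtcagtctgat, that holds the D box, and AT2G43138 and AT2G43139 differ at 3 of 79 positions. All 4 lie within the gene AT2G43110, outside its annotated exons. U60.1F lies in FIB1 and U60.2F in FIB2, likewise outside the exons, and both genes encode fibrillarin, the methyltransferase of box C/D particles. These 6 were the snoRNA loci inside a protein-coding gene with no shared exon.

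The ncRNA class was made of exons rather than of whole transcripts. Its 1178 intervals, of which 1132 were distinct, joined into 947 loci with 429388 bases, and 939 of these loci matched a RefSeq gene. The matched genes had a single exon in 133 cases and 2 or more in 261, up to 18 exons in AT5G49152 (chr5:19924322-19929377). The loci ranged from 20 bases (in AT2G41178, chr2:17165430-17165449) to 3592 bases (AT4G16748, chr4:9417058-9420649), with a median of 269. The matched genes of this class seldom stood close together: 22 of them, 5.6%, formed 11 pairs with a gap of at most 2 kb, and no larger group was found at that gap. The largest runs of loci were exons of few genes, the 18 of AT5G49152, 13 in AT5G24205 and AT5G24206, and 10 in AT5G40275.

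Bases shared with exons of other biotypes made up a larger part of the ncRNA class than of the others. Of its bases, 49.69% lay in an exon of another biotype, almost entirely on the opposite strand, since bases shared on the same strand came to 0.92%. Protein-coding exons alone held 47.01% of the bases, in 433 loci, and 17.5% of the loci were wholly shared. The matched genes that RefSeq calls lncRNA carried this overlap, with 217 of 223 genes (97.3%) sharing bases and 72.0% of their bases shared. Of the matched genes that RefSeq itself calls ncRNA, 11 (6.6%) shared bases, with 2.5% of their bases. The locus with the most shared bases was AT4G26095, all 2928 bases of which (chr4:13224338-13227265, minus strand) face RPS2, a resistance gene against Pseudomonas syringae. AT4G13918 followed, with 2757 shared bases, opposite RLP50, which encodes a receptor-like protein, and AT4G26542, with 2346, opposite AT4G26540. The TAS loci were nearly free of such bases, with 31 of 990 in TAS1C and 0 in TAS1A, TAS1B, TAS2, TAS3, TAS3b and TASIR-ARF. GUT15, with 3 exons in the class, and ZPR4, with 2, shared no base either.

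**Figure D1:**
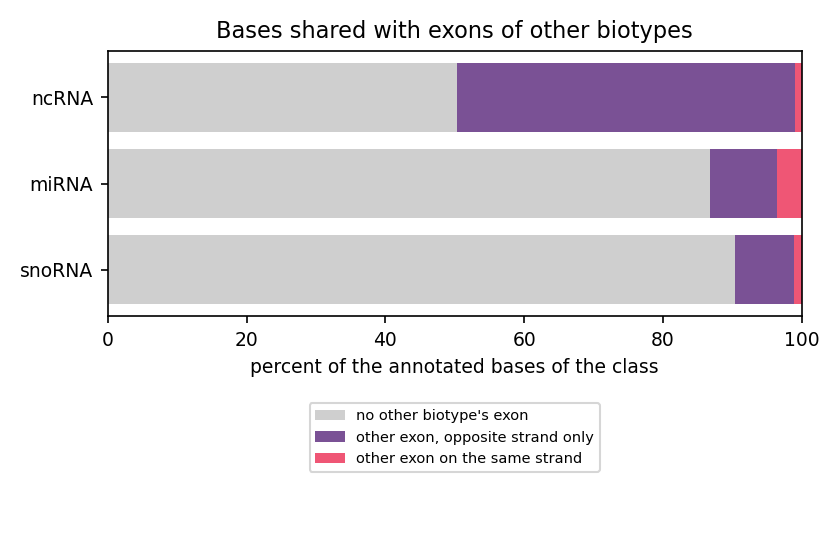
Share of the annotated bases of each class (horizontal axis, percent) that lay in no exon of another biotype (grey), in such an exon on the opposite strand only (purple) or on the same strand (red). The shared part was 49.69% for ncRNA, 13.21% for miRNA and 9.63% for snoRNA.

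The overlap bears on the counts, which were made without regard to strand. A fragment from an mRNA and one from its antisense partner could not be told apart, and by the default of the counting program a fragment that touches exons of several biotypes is left out. Free of shared bases were 216032 bases of the ncRNA class, 31274 of the miRNA class and 6632 of the snoRNA class. How far the fragments assigned to a class came from transcripts of that class was not tested.

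The miRNA class comprised 193 intervals in 185 loci with 36036 bases, and 177 loci carried a RefSeq miRNA gene name. The loci were between 40 and 1696 bases long, with a median of 126, and 107 of them (57.8%) were shorter than the reads of 150 bases. The longest, an interval with no matching miRNA gene (chr5:4695318-4697013, plus strand), shared 1618 bases with NRT2.7, a nitrate transporter gene on the opposite strand. It lay beside MIR398c, a member of a family that targets copper superoxide dismutases. MIR408, of another copper-responsive family, shared 846 of its 1247 bases with AT2G47020, and MIR835 lay with all 400 bases in AT1G76065 on the same strand. In the class as a whole, these examples included, such overlap took in 18 loci (9.7%) and 13.21% of bases.

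Of 24 conserved miRNA families all had at least 1 locus, and together they made up 89 loci, 48.1% of the class and 45.3% of its bases. The miR169 family, which targets NF-YA transcription factors, was the largest with 14 loci, followed by miR156, which restrains SPL genes of phase change, with 8, and miR166, which targets HD-ZIP III genes, with 7. In contrast, miR162, miR403 and miR408 had 1 locus each. The counts in this paragraph are of the loci annotated here, which cover 177 of the 326 miRNA genes that RefSeq has on the nuclear chromosomes. A family may thus have further loci. The 177 loci with an annotated product held 243 mature miRNAs of 193 distinct sequences, 20 to 24 bases long. Most of these sequences, 150 (77.7%), had 21 bases, and 126 (65.3%) began with U. A sequence that another locus also holds was found in 74 loci (41.8%), so that a mature sequence alone would not name its locus there.

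Some miRNA loci stood in clusters, and part of these clusters held members of 1 family. Of the 185 loci, 40 (21.6%) stood in 18 clusters with gaps of at most 2 kb. Intervals that matched no miRNA gene count as loci here, and counted by gene 27 miRNA genes (15.3%) stood in 13 clusters. Whether such an interval is a further exon of the miRNA gene beside it was not tested. The tightest cluster of 3 named loci was MIR399d, MIR399e and MIR399f (chr2:14442978-14445114), of the family that responds to phosphate. MIR172a (chr2:11941661-11943604), MIR156c (chr4:15413319-15415873) and MIR824 (chr4:12623536-12626432) each stood with 2 intervals that matched no miRNA gene. MIR169i to MIR169n formed 3 pairs on the minus strand of chromosome 3, between 9871960 and 9878754, and all 6 carry the sequence printed above. MIR395a with MIR395b, MIR395e with MIR395f, MIR166c with MIR166d, and MIR169d with MIR169e were further pairs within a family. A sequence shared with another locus of the same cluster was found in 10 loci.

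The snoRNA class was the most compact. Its 71 intervals did not overlap one another, had the same ends as 71 RefSeq genes, and summed to 7339 bases. RefSeq lists 287 snoRNA genes, so the clusters and densities below are those of the loci annotated here. Lengths ran from 72 (AT5G66567, chr5:26567660-26567731) to 702 bases (U3B, chr5:21887966-21888667), with a median of 84, and 69 loci (97.2%) were shorter than a read. U3, which takes part in the processing of ribosomal RNA precursors, gave the 2 longest loci, U3B and U3D (361 bases). These 2 also shared the most bases with other exons, 225 in U3D with HSFA9, a seed heat shock factor gene, and 200 in U3B with AT5G53905. All 121 bases of AT3G14475 lay opposite AT3G14470, and the class as a whole shared 9.63% of its bases.

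**Figure D2:**
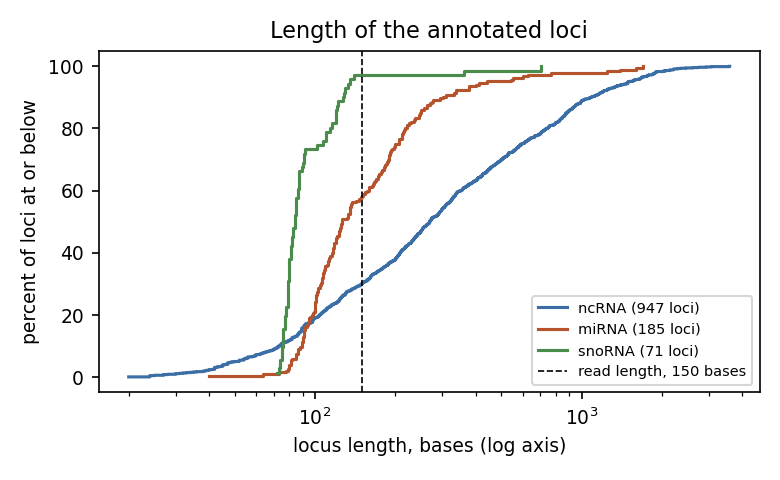
Length of the loci (horizontal axis, bases, log scale) against the percent of loci of that length or shorter (vertical axis), with 1 line for each class and a dashed line at the read length of 150 bases. At that line the snoRNA class has reached 97.2%, the miRNA class 57.8% and the ncRNA class 29.9% of its loci.

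Many snoRNA loci stood in groups. Of the 71 loci, each of which is a gene of its own, 41 (57.7%) stood in 16 clusters, and the loci of each cluster lay on 1 strand. Counted by gene, among the genes annotated here only, 15.3% of the miRNA genes and 5.6% of the ncRNA genes stood in clusters at the same gap. Counted by locus the share was 21.6% for miRNA and 86.0% for ncRNA, whose loci are exons that mostly lie beside others of their own gene. Both clusters of 4, AT2G43137 to AT2G43141 (chr2:17923081-17923637) and AT4G39361 to AT4G39366 (chr4:18304891-18305704), held a run common to their members, of 20 and 23 bases. The next, AT2G20721 to AT2G20723 (chr2:8931565-8931922), had no common run over 8 bases. A run of 23 bases was also common to a cluster of 2 on chromosome 3 (chr3:21559060-21559320). The motif TGATGA within the first 25 bases was found in 54 loci (76.1%), against 2 (2.8%) of the adjacent upstream windows of the same length. CTGA within the last 25 bases was found in 62 loci (87.3%), against 2 (2.8%) of those windows. Both were present in 52 loci (73.2%) and in 0 windows. Both motifs were searched on the annotated strand, and the windows at the ends do not overlap, since the shortest locus has 72 bases. An upstream window can run into a neighbouring snoRNA of the same cluster. This was so for both windows that held TGATGA, those of AT1G74453 and AT2G35744. The ACA trinucleotide of the other snoRNA type, at its place near the 3′ end, was found in 1 locus, SNOR95.

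Predicted folding differed between the classes in the way the loci stood out from their surroundings. The minimum free energy per base of the miRNA loci had a median of -0.4 kcal/mol, against -0.16 in the adjacent upstream windows, and it was lower than its window in 177 of 185 loci. For the snoRNA loci the medians were -0.173 and -0.129, with 55 of 71 loci below their window. A miRNA locus is annotated around a hairpin, so a low energy follows largely from how that class is defined. The windows were not matched in base composition, and some windows of clustered miRNA and snoRNA loci run into a neighbouring locus. The part of either in these differences was not tested.

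**Figure D3:**
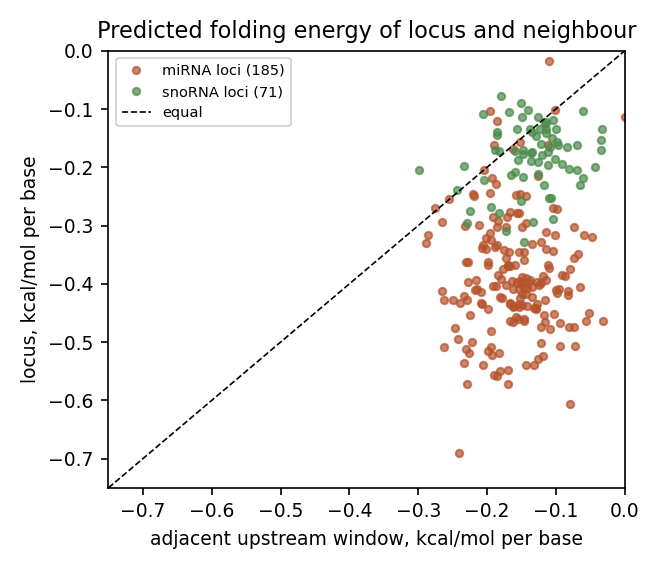
Predicted minimum free energy per base of each miRNA (brown) and snoRNA (green) locus (vertical axis) against that of the upstream window of the same length (horizontal axis), both in kcal/mol per base. Points under the dashed line of equality are loci that fold more stably than their window, 177 of 185 miRNA and 55 of 71 snoRNA loci.

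Over the chromosomes, the ncRNA loci were densest on chromosome 2, at 9.59 per Mb, and sparsest on chromosome 3, at 6.95 per Mb. The snoRNA loci ran from 0.44 per Mb on chromosome 5 to 0.76 on chromosome 2, and the miRNA loci from 1.28 on chromosome 3 to 1.77 on chromosome 1. An ncRNA locus is an exon, so the density of that class also depends on the number of exons per gene. All these densities are of the loci annotated here. The median GC content was 40.8% for ncRNA, 38.7% for miRNA and 38.2% for snoRNA loci.

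The libraries held between 24735276 and 34329165 counted fragments, of which the 3 classes together took 0.126% to 0.197%. Poly(A) RNA was sequenced, whereas mature miRNAs and most snoRNAs carry no poly(A) tail, and which transcripts gave the fragments over these loci was not tested. Replicates 1 and 2 of a group differed little over the biotypes, with a chi-square per degree of freedom of 0.815 to 2.31, while their sum differed from replicate 3 with values of 491 to 4830. Replicates 1 and 2 were therefore summed and counted as 1 sample, so that n = 2 in each group, and the cause of the distance of replicate 3 was not tested. With 2 samples against 2 the smallest p of an exact permutation test is 0.33. The p-values below measure the spread between these samples, which may be partly technical.

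ncRNA was the most abundant of the 3 classes, with 29400 to 56645 counts per library. In counts per 1000000 counted fragments (CPM), its level in WT was 1822, 1795 and 1504 in replicates 1, 2 and 3, and in WT with ABA it was 1279, 1283 and 1216. In gpl-1 it was 1647, 1625 and 1118, and in gpl-1 with ABA it was 1618, 1585 and 1166. Replicate 3 was the lowest library of every group, at 0.684 to 0.949 of the level of replicates 1 and 2. The 3 libraries of WT with ABA all lay below the 3 of WT, whereas the gpl-1 groups with and without ABA overlapped over most of their range. With replicates 1 and 2 counted as 1 sample, 5 of the 9 biotypes (55.6%) were separated between the WT groups, in either direction.

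miRNA loci received 1987 to 4233 counts per library. The level was 99.0, 97.3 and 87.3 CPM in WT, and 87.5, 82.4 and 142.5 in WT with ABA. In gpl-1 it was 90.9, 92.0 and 75.6, and in gpl-1 with ABA 127.6, 129.5 and 112.6. The 3 gpl-1 libraries with ABA lay above the 3 without it. With replicates 1 and 2 counted as 1 sample, 2 of the 9 biotypes (22.2%) were separated between the gpl-1 groups, in either direction. In WT the libraries with ABA fell on both sides of those without, since replicate 3 was at 1.68 times the level of replicates 1 and 2, against 0.827 to 0.89 in the other groups.

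snoRNA loci received 1125 to 2224 counts per library. The level was 52.1, 52.2 and 59.4 CPM in WT, and 40.7, 40.6 and 46.5 in WT with ABA. In gpl-1 it was 64.8, 63.6 and 68.3, and in gpl-1 with ABA 37.0, 34.4 and 58.5. In both genotypes the libraries with ABA all lay below those without, and replicate 3 was the highest library of each group. With replicates 1 and 2 counted as 1 sample, 5 of the 9 biotypes (55.6%) were separated by ABA in WT and 2 of 9 (22.2%) in gpl-1. The gap between the libraries with and without ABA was narrow beside the counting error in gpl-1. In gpl-1 the nearest libraries were replicate 3 with ABA, with a 95% Wilson interval of 55.7 to 61.5 CPM, and replicate 2 without it, with 61.0 to 66.4, and these intervals overlapped. In WT the nearest intervals were 43.9 to 49.3 with ABA and 49.6 to 54.7 without, and these did not overlap. Such intervals cover counting error only. For gpl-1 with ABA replicate 3 stood at 1.64 times replicates 1 and 2, compared with 1.06 to 1.14 elsewhere.

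**Figure D4:**
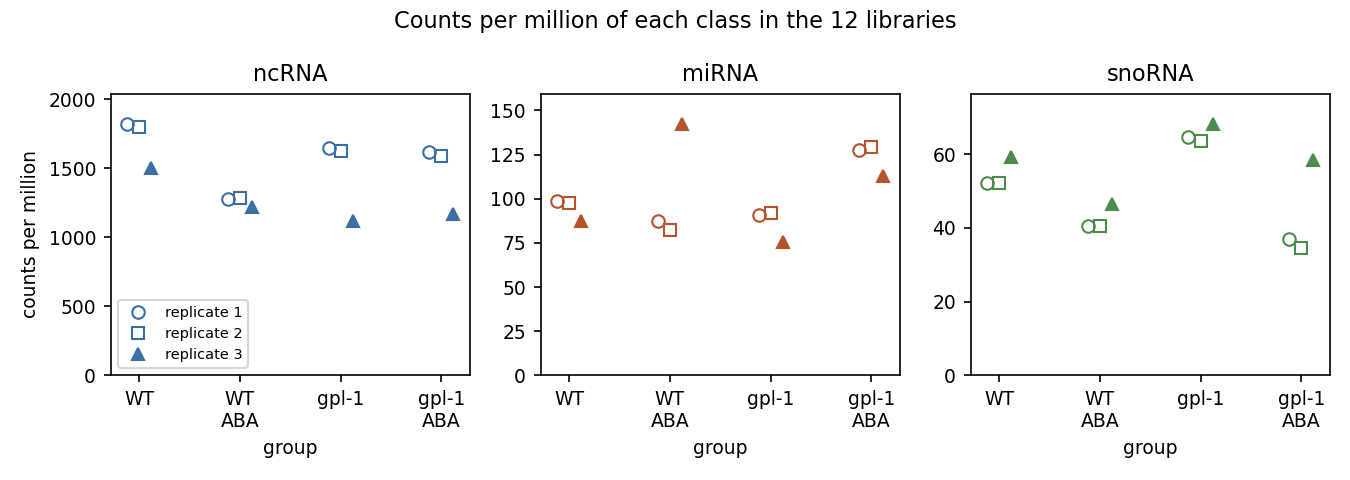
CPM (vertical axes, from 0) of the ncRNA, miRNA and snoRNA classes in each of the 12 libraries, by group, with replicates 1 and 2 as open circles and squares and replicate 3 as filled triangles. Replicates 1 and 2 nearly coincide, and replicate 3 stands below them for ncRNA, above them for snoRNA, and far above them for miRNA in WT with ABA.

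Per kb of annotated length the order of the classes changed, and the smallest class came first. In WT the level per kb was 7.6 ± 0.695 CPM for snoRNA, 3.86 ± 0.502 for ncRNA and 2.57 ± 0.212 for miRNA (SD, n = 2). snoRNA was above ncRNA and above miRNA in 12 of 12 libraries, and ncRNA above miRNA in 10. Protein-coding exons, for comparison, had 24.1 to 24.2 CPM per kb. When the length was taken as the bases free of other exons, ncRNA in WT came to 7.67 ± 0.998 and snoRNA to 8.41 ± 0.769 (SD, n = 2), and snoRNA remained above ncRNA in 8 of 12 libraries only. The order of these 2 classes thus turned on the length used, while miRNA was the lowest of the 3 in all 12 libraries on that scale. Levels per kb of such short loci also depend on how much of a fragment must lie in them, which was not tested.

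The comparison of WT with and without ABA asked whether the classes moved with the hormone. The mean ncRNA level was 1660 ± 216 CPM in WT and 1250 ± 46 CPM with ABA (SD, n = 2), a log2 ratio of -0.41 with a 95% interval of -1.08 to 0.26, and this did not pass the test (edgeR quasi-likelihood, adjusted p = 0.5). The snoRNA class had a log2 ratio of -0.36, with an interval of -1.03 to 0.31 (edgeR, adjusted p = 0.5), and nearly the same value in both sets of replicates, -0.36 in replicates 1 and 2 and -0.35 in replicate 3. The miRNA class had 0.29, with an interval of -0.44 to 1.02 (edgeR, adjusted p = 0.61), and the sets went opposite ways, at -0.21 and 0.71. Without replicate 3 of WT with ABA the miRNA ratio was -0.13, so that this library set its sign. By edgeR 0 of the 9 biotypes passed in this comparison, a background of 0%, as 0 did at an unadjusted p of 0.05, and 0 by DESeq2. The 2 samples of ncRNA and of snoRNA did not overlap between the groups, as was so for 5 of the 9 biotypes, 55.6%. rRNA was among these, with 3710 and 1570 CPM in WT and 1540 and 1110 with ABA, and its part in the ratios of the other classes was examined only by leaving it out of the library total.

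In gpl-1 the mean ncRNA level was 1380 ± 366 CPM without and 1380 ± 308 CPM with the hormone (SD, n = 2). The log2 ratio was 0.01, with an interval of -0.66 to 0.68 (edgeR, adjusted p = 0.99), an interval that also holds the ratio of WT. The miRNA class had 0.53, the largest ratio of the 12, with an interval of -0.2 to 1.26 (edgeR, adjusted p = 0.48) and like values in both sets, 0.49 and 0.58. The snoRNA class had -0.49, with an interval of -1.16 to 0.18 (edgeR, adjusted p = 0.48) and values of -0.85 and -0.22. Here too 0 of the 9 biotypes passed by edgeR (0%), 0 at an unadjusted p of 0.05, and 0 by DESeq2. miRNA and snoRNA were the 2 biotypes of 9 (22.2%) whose samples did not overlap between the groups. Without replicate 3 of gpl-1 with ABA, the snoRNA ratio was -0.89 (edgeR, adjusted p = 0.039, 1 of the 9 biotypes called). That fit has 1 summed sample in this group, which is assumed to vary like the samples of the other groups.

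**Figure D5:**
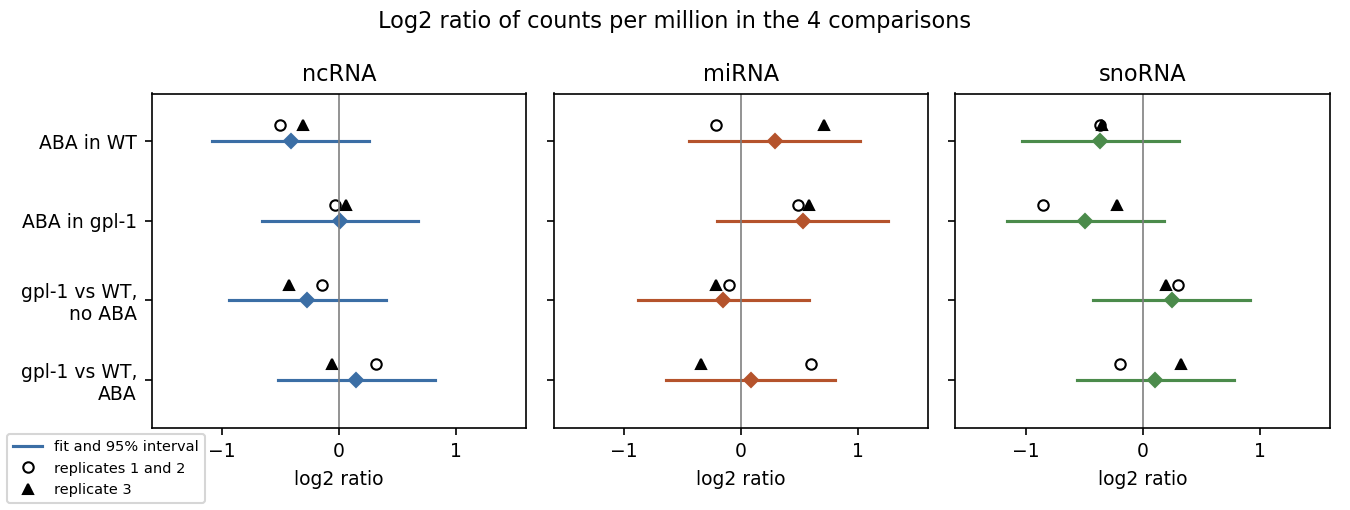
Log2 ratio of CPM (horizontal axes) of the 3 classes in the 4 comparisons, with the fitted ratio (diamond), its 95% interval (line), and the ratio in replicates 1 and 2 (open circle) and in replicate 3 (triangle) just above it. Every interval includes 0, and in the comparison of the genotypes under ABA the circle and the triangle lie on opposite sides of 0 in all 3 classes.

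The genotypes were compared without and with ABA. Without ABA the log2 ratio of gpl-1 to WT was -0.27 for ncRNA (interval -0.94 to 0.4), -0.15 for miRNA (-0.88 to 0.58) and 0.25 for snoRNA (-0.42 to 0.92), with an adjusted p of 0.97 for each (edgeR). Each ratio had the same sign in both sets of replicates. The snoRNA samples of gpl-1 both lay above those of WT, and this was the only biotype of 9 (11.1%) without overlap. With ABA the ratios were 0.15 for ncRNA (interval -0.52 to 0.82), 0.09 for miRNA (-0.64 to 0.81) and 0.11 for snoRNA (-0.56 to 0.78), with an adjusted p of 0.93 for each (edgeR). In this comparison the 2 sets gave opposite signs for every class, at 0.32 and -0.06 for ncRNA, 0.6 and -0.34 for miRNA, and -0.19 and 0.33 for snoRNA. None of the 3 classes was free of overlap, against 1 of the 9 biotypes (11.1%). In both comparisons 0 of the 9 biotypes passed by edgeR (0%), 0 at an unadjusted p of 0.05, and 0 by DESeq2.

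Whether the response to ABA differed between the genotypes was tested as an interaction. The difference, gpl-1 minus WT, was 0.41 on the log2 scale for ncRNA (interval -0.53 to 1.36), 0.24 for miRNA (-0.79 to 1.27) and -0.14 for snoRNA (-1.08 to 0.81), with an adjusted p of 0.93 for each (edgeR). The sets of replicates gave 0.47 and 0.37 for ncRNA, but opposite signs for miRNA, at 0.7 and -0.13, and for snoRNA, at -0.49 and 0.13. Of the 9 biotypes 0 passed (0%), 0 at an unadjusted p of 0.05, and 0 by DESeq2. All 3 intervals include 0 and are wider than the ratios themselves.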

How the data were processed

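Per the labels and the methods of the study, poly(A) RNA was made into libraries with a directional kit and sequenced as paired reads of 150 bases. Bowtie2 and the TAIR10 genome served for alignment, and the authors deposited the raw counts of featureCounts 2.0.1, 1 count of fragments per biotype and library, marked duplicates included, without strand, over exons, with both mates mapped and with chimeric pairs left out. The deposited Length column equals the merged bases of each class. Differences between groups were tested with edgeR 4.0.16 (quasi-likelihood, library total, all 9 biotypes, Benjamini-Hochberg adjustment, threshold 0.05) in R 4.3.3, with DESeq2 1.42.0 as an alternative. The scripts were tested on simulated data.

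Names, products and sequences came from RefSeq TAIR10.1, in which 80.1% of 159403 protein-coding exons had the same ends. Folding used ViennaRNA 2.7.2. Loci were named by rule: the 3 largest clusters, the longest and the shortest locus and the 3 with the most shared bases in each class, conserved miRNA families in clusters or with a shared sequence, and ncRNA loci with a symbol. The members and lists were chosen with earlier results of these data known. Alternatives were other scalings, a filter of 100 counts, a replicate block, separate libraries, left-out replicates, other lengths and other gaps.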

Additional observations from a re-analysis of the deposited data

How the results depend on the processing

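With replicate 3 left out of every group and replicates 1 and 2 taken as separate samples, which leaves only the small distance between those libraries as spread, 14 of the 15 ratios of the classes passed the threshold by edgeR, as did 41 of the 45 ratios of all biotypes (91.1%). For ncRNA, miRNA and snoRNA in turn the response of WT to ABA was -0.5, -0.21 and -0.36, and that of gpl-1 was -0.03, 0.49 and -0.85. The ratio of the mutant to WT was -0.14, -0.1 and 0.3 in untreated seedlings and 0.32, 0.6 and -0.19 under ABA, and the interaction was 0.47, 0.7 and -0.49. The sign turned there for miRNA under ABA in WT, for ncRNA under ABA in gpl-1, which did not pass, and for snoRNA between the genotypes with ABA. Taking the 12 libraries as separate samples turned ncRNA under ABA in gpl-1 to -0.01.

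Leaving out 1 library at a time, the ratios of ncRNA, miRNA and snoRNA to ABA ran from -0.53 to -0.37, -0.13 to 0.31 and -0.46 to -0.26 in WT, and from -0.24 to 0.22, 0.4 to 0.62 and -0.89 to -0.45 in gpl-1. The mutant against WT ran from -0.39 to -0.02, -0.23 to -0.02 and 0.2 to 0.35 in untreated seedlings and from 0.11 to 0.36, 0.07 to 0.51 and -0.29 to 0.21 under ABA, and the interaction from 0.17 to 0.63, 0.11 to 0.66 and -0.53 to -0.04. The adjusted p of snoRNA under ABA in gpl-1 ran from 0.039 to 0.66 (edgeR), the lowest without replicate 3 of gpl-1 with ABA, where 1 of the 9 biotypes was called. Where replicate 3 is left out, its group is 1 summed sample, assumed to vary like the other groups.

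The deviations of same-numbered samples were correlated between groups at 0 to 0.79, over 0.1 in 4 of 6 pairs of groups. In every group replicate 3 was below replicates 1 and 2 for ncRNA and above them for snoRNA. The main fit did not take the numbers as pairs, so any shift common to the groups stayed in its spread. With a replicate block the snoRNA ratio under ABA in gpl-1 was -0.52 and 0 of the 9 biotypes passed in any comparison by edgeR. Neither another scaling, DESeq2, rRNA left out of the total nor the filter of 100 counts changed a call. With a gap of 5 kb in place of 2 kb, 41 ncRNA genes, 47 miRNA loci and 42 snoRNA loci stood in clusters. With 2 samples in each group the spread, not the counting depth, limits what can be resolved.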
